A study of Homo sapiens with 8 samples.

Results

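The kinetochore and spindle genes described here are 50 genes chosen by name from the 60282 genes in the table of counts. They encode the inner and outer kinetochore, the spindle assembly checkpoint, the chromosomal passenger complex, the mitotic kinases and their anaphase partners, and motors and other proteins of the spindle. The choice is a list of names and uses no threshold on these data, and all 50 passed the filter on low counts and were tested.

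The kinetochore is the protein structure that assembles on centromeric chromatin and holds each chromosome to the microtubules of the mitotic spindle. Its inner part, the constitutive centromere-associated network, sits on nucleosomes that carry the histone variant CENP-A, and its outer part, the KMN network, binds microtubules. While any kinetochore is unattached, the spindle assembly checkpoint holds back the anaphase-promoting complex. Once all are attached, CDC20 activates that complex, securin is degraded and separase cuts the cohesin that joins sister chromatids. Many of these genes are transcribed mainly in late S, G2 and M phase, so that their level in bulk RNA follows the share of cells in those phases as well as the transcription in each cell.

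SK-UT-1 is an established human cell line derived from a leiomyosarcoma of the uterus, and its RNA was sequenced after 48 h with 5 µM TP-472, an inhibitor of the bromodomain proteins BRD9 and BRD7 (TP-472, n = 4), or with DMSO (vehicle, n = 4). BRD9 and BRD7 are subunits of SWI/SNF chromatin remodeling complexes. All 8 libraries came from 1 cell line, and the study's methods speak of biological replicates in general, but the labels do not say whether these libraries came from separate cultures, so the p-values measure the spread between these libraries, which may be technical. In bulk RNA, fewer cells in mitosis and less of a transcript per cell cannot be told apart. Levels are given as CPM, that is, counts divided by a library size that TMM scaling corrected for composition. A gene was called lower or higher when the Benjamini-Hochberg adjusted p of edgeR's quasi-likelihood test was under 0.05 and the fold change was over 1.5 (0.585 on the log2 scale), and "fell" and "rose" are used for called genes only. Log2 fold changes are given ± their standard error.

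The total count was 34433596, 36634184, 32574716 and 36407850 for vehicle replicates 1 to 4, against 38545695, 37674588, 37427131 and 36246466 for TP-472 replicates 1 to 4. The 50 genes took 0.670%, 0.643%, 0.617% and 0.642% of the counts in the vehicle libraries and 0.581%, 0.541%, 0.565% and 0.580% in the TP-472 libraries, so that the groups did not overlap in shares of raw counts. The lowest count of any of them was 269, for *CENPQ* in 1 library, and the highest was 36054, for *CENPF*. The groups also did not overlap in genes with a count (23333 to 23943 in vehicle against 25386 to 26215 in TP-472). Nor did they in the share of histone genes (1.11% to 1.53% against 0.864% to 0.977%) or mitochondrial genes (0.285% to 0.424% against 0.199% to 0.282%). The share of protein-coding genes overlapped (77.4% to 83.5% against 76.5% to 83.8%). The part of these measures in the results was not tested.

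Among the markers of uterine smooth muscle, *CALD1* (178 to 211 CPM), *ACTA2* (105 to 177 CPM) and *TAGLN* (18.7 to 34.3 CPM) were present in all 8 libraries. *ACTA2* and *TAGLN* fell without vehicle replicate 3 (-0.60 ± 0.07 with an adjusted p of 0.000126 and -0.65 ± 0.10 with an adjusted p of 0.000607), and with all 8 libraries *ACTA2* was within the fold limit (-0.55 ± 0.10 with an adjusted p of 0.00426). *DES* was at 3.01 to 3.49 CPM in vehicle and at 0.396 to 0.777 CPM in TP-472, and fell in the fit with all 8 libraries (-2.36 ± 0.22 with an adjusted p of 0.000189). *LMOD1*, at 1.47 to 3.54 CPM in vehicle and 0.472 to 0.874 CPM in TP-472, also fell there (-1.84 ± 0.34 with an adjusted p of 0.00401), and neither gene was tested without vehicle replicate 3. *MYH11*, *MYOCD*, *ACTG2* and the steroid receptor genes *ESR1* and *PGR* were at or near 0, with no library above 0.264 CPM, and *CNN1* was low (0.942 to 1.83 CPM). *SMTN* was at 46.5 to 61.2 CPM in 7 libraries and at 158 CPM in vehicle replicate 3. Some smooth muscle markers were thus present and others at or near 0. The 10 genes of the smooth muscle list summed to 439, 480, 524 and 481 CPM in the vehicle libraries and 380, 378, 373 and 371 CPM in the TP-472 libraries, with *CALD1* the most abundant. Their part in the results for the kinetochore and spindle genes was not tested. Of the epithelial markers, *KRT18* rose (1.13 ± 0.11 with an adjusted p of 3.7e-05) and *KRT19* fell (-0.71 ± 0.18 with an adjusted p of 0.00698) without vehicle replicate 3, and *EPCAM* and *CDH1* were under 1 CPM in every library. The 5 epithelial markers summed to 17.5 to 23.1 CPM in vehicle and 20.4 to 26.8 CPM in TP-472. *VIM*, the mesenchymal marker, was at 2149 to 3546 CPM in vehicle and 1850 to 1985 CPM in TP-472 (-0.21 ± 0.08 with an adjusted p of 0.0358 without vehicle replicate 3 and -0.41 ± 0.18 with an adjusted p of 0.0983 with all 8 libraries). Markers of endothelial cells summed to under 0.6 CPM in every library and the leukocyte markers *PTPRC* and *CD3E* were at or near 0, while *CD68*, of macrophages and lysosomes, was at 6.68 to 7.9 CPM in vehicle and 8.93 to 12.2 CPM in TP-472 (0.48 ± 0.13 with an adjusted p of 0.0106 without vehicle replicate 3).

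Vehicle replicate 3 stood apart from the other 3 vehicle libraries. It was below all of them in 31 of the 50 genes, above all of them in 14 and within their range in 5, and it was the lowest of all 8 libraries in 25 genes and the highest in 13. Its distance from the mean of vehicle replicates 1, 2 and 4 ran from -1.35 (*CENPW*) to 0.95 (*MAD1L1*) on the log2 scale. This distance went with base composition: across the 50 genes it correlated with the GC content of the longest transcript (r = 0.89, rho = 0.87), against r = 0.73 and rho = 0.77 across 13970 of the genes tested. These are descriptions across genes of 1 library, and genes are not independent replicates. The 25 genes of lower GC content had a median distance of -0.56, with 25 of 25 negative, and the 25 of higher GC content a median of 0.21, with 10 negative. For the mean of the 4 TP-472 libraries the same correlation was r = 0.19 and rho = 0.26, against r = -0.07 and rho = -0.07 across all genes. Every comparison was fitted with all 8 libraries and again without vehicle replicate 3, a choice made with earlier results of these data known. The values without it are given first. Leaving out a library for its values can narrow the spread and lower the adjusted p.

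**Figure D1:**
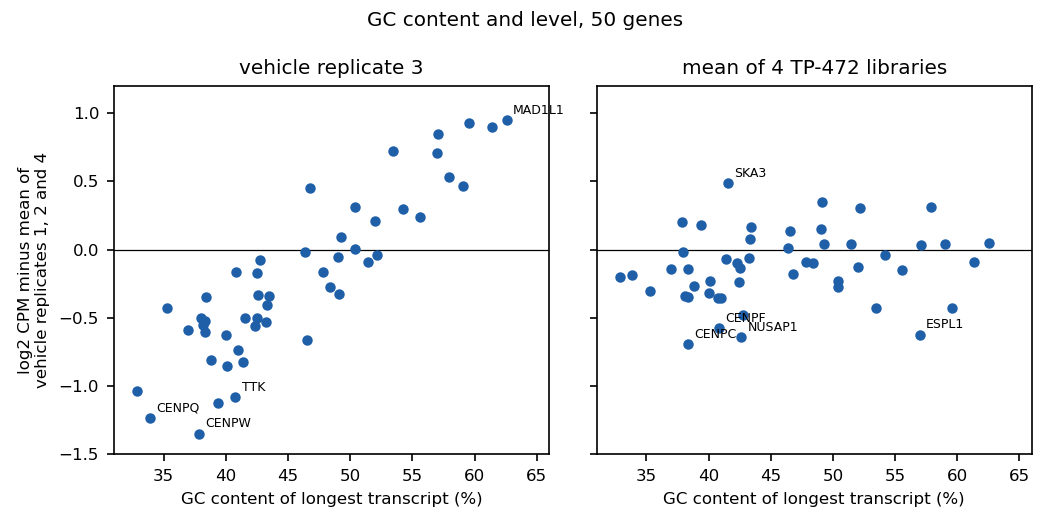
Distance of each of the 50 genes from the mean of vehicle replicates 1, 2 and 4 (log2 CPM, y axis) against the GC content of its longest transcript (percent, x axis), for vehicle replicate 3 (left) and for the mean of the 4 TP-472 libraries (right), 1 point per gene. In vehicle replicate 3 the points rise with GC content (r = 0.89), and in TP-472 they do not line up with it (r = 0.19).

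The promoters of 41 of the 50 genes were found in RefSeq (GRCh38.p14), as 250 bases before and 50 bases after the annotated start. The cell-cycle homology region (CHR), the element through which the DREAM and MuvB complexes bind promoters of G2/M genes, was searched as TTTGAA or TTCGAA on both strands, and the CCAAT box, bound by NF-Y, as CCAAT on both strands. A CHR match was in 25 of the 41 promoters (61.0%), against 16.6% of 27305 promoters in all and 11% of the 10200 promoters of tested genes. A CCAAT match was in 27 (65.9%), against 35.7% and 37.2%, and both were in 19 (46.3%), against 6.58% and 4.75%. The median GC content of these windows was 61.7% for the 41 genes, 58.3% for all promoters and 65.7% for the tested genes. The matches are descriptions of sequence and not shown to be bound sites here.

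The stretches shown are 150 bases free of GENCODE exons before the starts of 5 genes, chosen because the genes differ in their values under TP-472: *ESPL1* fell, *CENPF* and *KIF11* were lower and *CDC20* higher by less than 1.5-fold without vehicle replicate 3, and *ZWINT* had an adjusted p over 0.05 in both fits. Each reads 5′ to 3′ on the strand of its gene, and capitals mark the CHR and CCAAT matches (TTCAAA and ATTGG are the same motifs on the other strand). The stretches are chr12:53268149-53268298 (+ strand) for *ESPL1*, chr1:214603045-214603194 (+) for *CENPF*, chr10:92592980-92593129 (+) for *KIF11*, chr1:43358805-43358954 (+) for *CDC20* and chr10:56361276-56361425 (- strand) for *ZWINT*.
ESPL1: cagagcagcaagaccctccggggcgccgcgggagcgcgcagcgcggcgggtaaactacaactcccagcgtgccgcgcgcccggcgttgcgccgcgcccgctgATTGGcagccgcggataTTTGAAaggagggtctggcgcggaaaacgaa
CENPF: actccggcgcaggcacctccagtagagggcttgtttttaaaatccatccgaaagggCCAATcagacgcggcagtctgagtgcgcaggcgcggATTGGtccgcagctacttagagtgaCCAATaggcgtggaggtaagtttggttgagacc
KIF11: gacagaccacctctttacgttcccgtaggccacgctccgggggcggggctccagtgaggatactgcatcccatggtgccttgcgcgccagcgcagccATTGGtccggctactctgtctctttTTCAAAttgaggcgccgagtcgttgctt
CDC20: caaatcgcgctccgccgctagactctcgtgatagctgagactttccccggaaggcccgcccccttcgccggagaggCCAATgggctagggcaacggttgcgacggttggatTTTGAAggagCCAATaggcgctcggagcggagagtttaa
ZWINT: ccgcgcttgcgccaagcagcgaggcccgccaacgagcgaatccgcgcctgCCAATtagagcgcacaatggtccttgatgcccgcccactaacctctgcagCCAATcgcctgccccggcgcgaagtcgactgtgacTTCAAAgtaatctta

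*ESPL1* and *KIF11* each held a CCAAT match followed by a CHR match, as did *ZWINT* with a pair of CCAAT matches before it. In the stretch shown, *CDC20* held a CHR match between its CCAAT matches, and the window held another further upstream. *CENPF* held 3 CCAAT matches in the stretch shown, and its window held a CHR match and another CCAAT match after the start. Among the 17 genes with a promoter that were lower at an adjusted p under 0.05 without vehicle replicate 3, 11 held a CHR match and 11 a CCAAT match. All 3 that were higher held a CHR match and 2 a CCAAT match, and of the other 21 genes 11 held a CHR match and 14 a CCAAT match. The motifs were thus in promoters of genes that were lower, higher and neither.

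When vehicle replicate 3 was left out, 3 of the 50 genes fell (*CENPC*, *NUSAP1* and *ESPL1*; 6.0% of the 50) and 0 rose (0 also by DESeq2 and by limma-voom, and 4 higher at an unadjusted edgeR p under 0.05). Of all 13879 genes tested, 13.1% were called lower and 12.0% higher, so the share of called genes was not above the background. In this fit the filter asks for 4 libraries over 1 CPM where vehicle has 3. Genes over 1 CPM in vehicle alone were thus not tested (*DES* and *LMOD1* among the markers). Genes over 1 CPM in all 4 TP-472 libraries alone were tested. Most of the other differences were small: 27 of the 50 were within 0.2 of 0 on the log2 scale, and the values ran from -0.70 (*CENPC*) to 0.48 (*SKA3*) with a median of -0.14, against 0.00 over all genes tested. By the adjusted p alone, with no limit on the fold, 19 of the 50 (38.0%) were lower, where the background was 28.5% (3953 genes). 4 were higher (8.0%), where the background was 28.6% (3965 genes). The first share was above its background and the second below it, and no test of that difference was made. The groups did not overlap for 20 genes that were lower in TP-472 and 5 that were higher, against 28.3% and 30.2% of all genes.

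With all 8 libraries, 4 of the 50 genes fell (*CENPC*, *ESPL1*, *INCENP* and *SPC24*; 8.0%), where 14.9% of 14073 genes tested did, and 1 rose (*SKA3*), where 12.0% did. Only *CENPC* and *ESPL1* were called in both fits. By the adjusted p alone, 7 were lower and 2 higher, against 19.1% and 17.2% of all genes. The groups did not overlap for 9 lower and 4 higher genes, against 21.6% and 23.8% of all genes. The median of the 50 was -0.09, against -0.03 over all genes tested, with 32 values below 0, and 34 were below 0 without vehicle replicate 3. The sign differed between the fits for 8 genes, none of them called in either. Leaving out any 1 of the 8 libraries gave 1 to 4 of the 50 genes that fell and 0 to 1 that rose.

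The median distance of the 50 genes from the mean of vehicle replicates 1, 2 and 4 was -0.07, 0.05 and 0.01 in those 3 libraries and -0.33 in vehicle replicate 3. In TP-472 replicates 1 to 4 it was -0.13, -0.09, -0.07 and -0.16. TP-472 replicate 3 was thus level with vehicle replicate 1, the lowest of those 3, the other TP-472 libraries lay below it, and all were above vehicle replicate 3. Summed over the 50 genes, the level was 6575 ± 185 CPM in these 3 vehicle libraries (SD, n = 3) and 5740 ± 133 CPM in TP-472 (SD, n = 4). Without *CENPF*, the gene with the most counts, the sums were 5409, 5729 and 5582 CPM in vehicle replicates 1, 2 and 4 and 4884 to 5184 CPM in TP-472, and vehicle replicate 3 was at 4927 CPM, within the TP-472 range. With *CENPF* it was at 5822 CPM, again within the TP-472 range of 5554 to 5863 CPM.

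**Figure D2:**
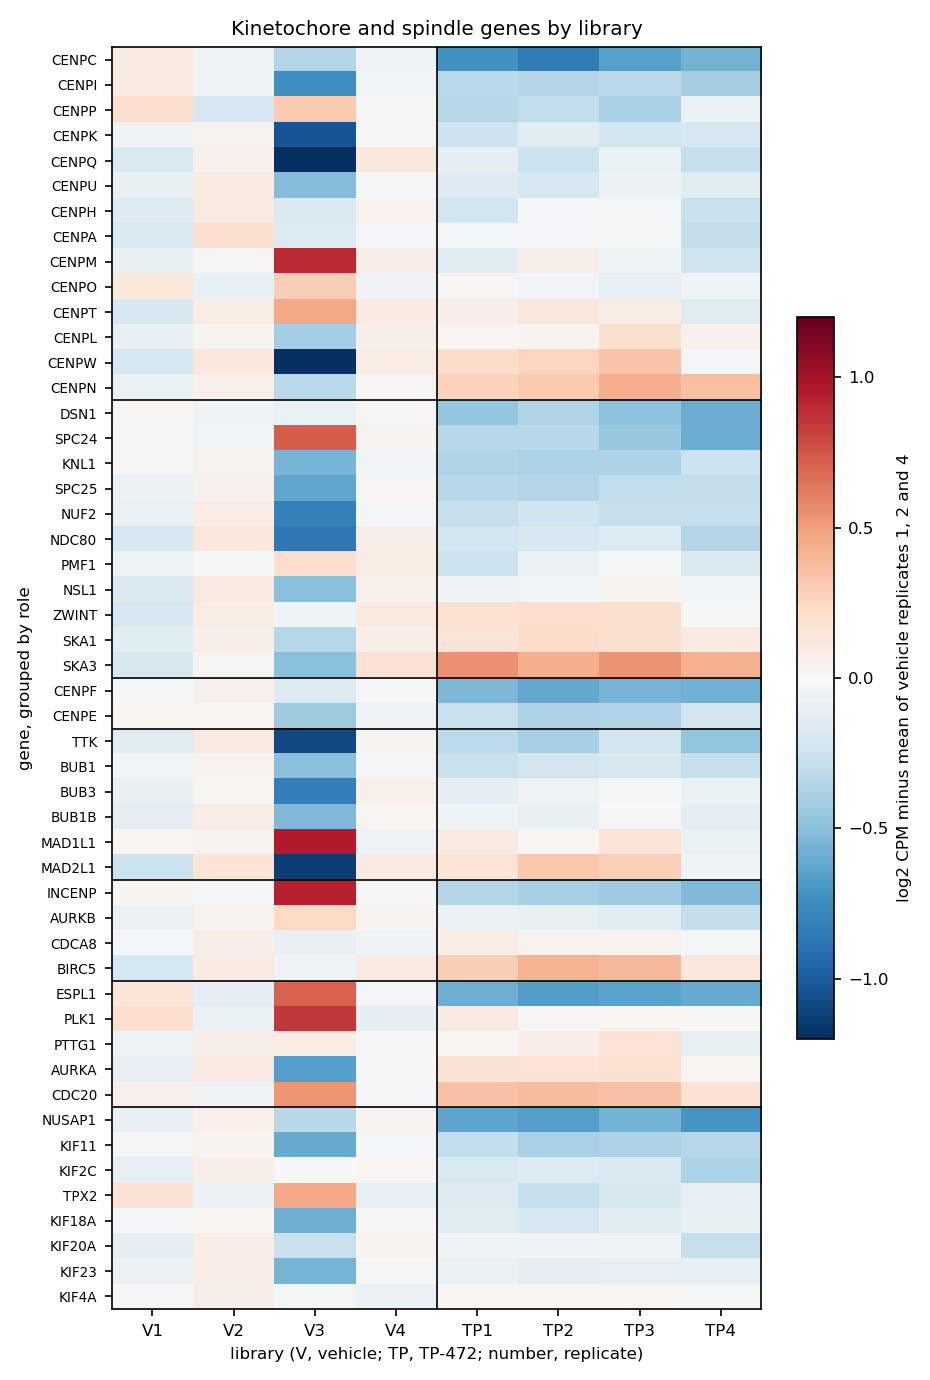
Level of each of the 50 genes (rows, grouped by role) in each of the 8 libraries (columns; V, vehicle; TP, TP-472), as log2 CPM minus the mean of vehicle replicates 1, 2 and 4, with red for higher and blue for lower; colors stop at 1.2 in either direction. Vehicle replicate 3 departs from the other vehicle libraries in both directions, and the rows of *CENPC*, *CENPF*, *ESPL1* and *NUSAP1* are blue in all 4 TP-472 libraries.

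The inner kinetochore was represented by 14 genes, of which 1 fell. Of all genes tested, 13.1% were called lower without vehicle replicate 3 and 14.9% with all 8 libraries. By the adjusted p alone, 3 were lower and 1 higher without vehicle replicate 3, against 28.5% and 28.6% of all genes tested. The median of the 14 was -0.12 (-0.07 with all 8 libraries). *CENPC* (chr4:67468748-67545606 on GRCh38 in GENCODE release 29, - strand) encodes the protein that links CENP-A nucleosomes to the rest of the kinetochore. It was at 61.3, 54.95, 44.99 and 55.8 CPM across vehicle replicates 1 to 4, against 34.7, 32.1, 36.4 and 38.7 CPM across TP-472 replicates 1 to 4. None of the 4 TP-472 libraries reached the lowest of the 4 vehicle libraries. The mean went from 57.4 ± 3.45 CPM (SD, n = 3, vehicle replicates 1, 2 and 4) to 35.5 ± 2.81 CPM (SD, n = 4), a log2 fold change of -0.70 ± 0.08 with an adjusted p of 6.58e-05, and with all 8 libraries it was -0.61 ± 0.12 with an adjusted p of 0.0055. In the fit that began with all 8 libraries, leaving out vehicle replicate 1 or TP-472 replicate 2 gave -0.56, below the fold limit. *CENPA*, the centromeric histone H3 variant itself, was at 35.3, 46.2, 35.8 and 39.9 CPM across vehicle replicates 1 to 4, against 39.5, 39.9, 39.5 and 32.95 CPM across TP-472 replicates 1 to 4. The groups overlapped, with a log2 fold change of -0.10 ± 0.10 with an adjusted p of 0.436.

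*CENPI*, whose product belongs to the CENP-H/I/K/M complex, was at 52.1, 46.6, 29.2 and 47.5 CPM across vehicle replicates 1 to 4, against 39.01, 38.1, 38.8 and 36.7 CPM across TP-472 replicates 1 to 4. Without vehicle replicate 3, the lowest of all libraries, the groups did not overlap and the log2 fold change was -0.36 ± 0.06 with an adjusted p of 0.000936; with it the groups overlapped and the value was -0.20 ± 0.17 with an adjusted p of 0.368. *CENPK*, of the same complex, had a log2 fold change of -0.21 ± 0.06 with an adjusted p of 0.0111 without vehicle replicate 3 and -0.00 ± 0.22 with an adjusted p of 0.99 with it, and vehicle replicate 3 was again the lowest library, at 23.1 CPM against 46.2 to 48.9 CPM in the other vehicle libraries. *CENPN*, which reads the CENP-A nucleosome together with CENP-C, was the inner kinetochore gene that was higher by the adjusted p, at 72.2 to 81.02 CPM in TP-472 and 47.6 to 62.4 CPM in vehicle. The groups did not overlap, and TP-472 was higher by 0.34 ± 0.06 with an adjusted p of 0.00149 on the log2 scale without vehicle replicate 3 and by 0.42 ± 0.11 with an adjusted p of 0.0181 with it, below the 1.5-fold limit in both. The other 9 genes (*CENPH*, *CENPL*, *CENPM*, *CENPO*, *CENPP*, *CENPQ*, *CENPT*, *CENPU* and *CENPW*) had values between -0.28 (*CENPP*) and 0.20 (*CENPW*) in the fit without vehicle replicate 3 and between -0.37 (*CENPM*) and 0.44 (*CENPW*) with all 8 libraries, with an adjusted p over 0.05 in both fits. Among them, *CENPM* shows how far vehicle replicate 3 could lie from the rest, at 39.3 CPM against 19.9 to 22.2 CPM in the other vehicle libraries and 17.8 to 22.2 CPM in TP-472.

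The outer kinetochore was represented by 11 genes. In the fit without vehicle replicate 3, 6 were lower and 1 higher by the adjusted p, all below the 1.5-fold limit. Of all genes tested, 28.5% were lower and 28.6% higher in that fit. The median of the 11 was -0.24 (-0.10 with all 8 libraries). *NDC80* encodes the microtubule-binding subunit after which the NDC80 complex is named, and was at 74.95, 94.04, 47.5 and 90.4 CPM across vehicle replicates 1 to 4, against 73.5, 75.3, 76.8 and 67.7 CPM across TP-472 replicates 1 to 4. TP-472 replicates 2 and 3 were above vehicle replicate 1, so the groups overlapped. The log2 fold change was -0.24 ± 0.08 with an adjusted p of 0.0336 without vehicle replicate 3 and -0.07 ± 0.20 with an adjusted p of 0.811 with it, and the adjusted p of the former was over 0.05 in 7 of 16 alternatives. *NUF2*, the partner of *NDC80* in that complex, was at 65.1 to 66.6 CPM in TP-472 and at 74.5, 83.8 and 78.2 CPM in vehicle replicates 1, 2 and 4, with vehicle replicate 3 at 44.8 CPM. Its log2 fold change was -0.27 ± 0.06 with an adjusted p of 0.00301 without that library, and -0.10 ± 0.18 with an adjusted p of 0.671 with it, where the groups overlapped.

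*SPC24* (chr19:11131520-11155808, - strand) and *SPC25* encode the other pair of subunits of the NDC80 complex, which docks onto the inner kinetochore. *SPC24* was at 36.1, 35.4, 59.8 and 37.2 CPM across vehicle replicates 1 to 4, against 28.8, 28.8, 26.3 and 23.9 CPM across TP-472 replicates 1 to 4. Vehicle replicate 3 was far above every other library, and the other 3 vehicle libraries were also above all TP-472 libraries. It fell in the fit with all 8 libraries (-0.65 ± 0.18 with an adjusted p of 0.0248) and was below the fold limit without vehicle replicate 3 (-0.43 ± 0.08 with an adjusted p of 0.00121). *SPC25* had the opposite shift in vehicle replicate 3, at 15.2 CPM against 22.4 to 24.4 CPM in the other vehicle libraries and 18.4 to 19.3 CPM in TP-472. Its log2 fold change was -0.32 ± 0.07 with an adjusted p of 0.00246 without that library and -0.18 ± 0.16 with an adjusted p of 0.369 with it. The partners thus gave like values only when vehicle replicate 3 was left out.

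*KNL1*, the scaffold of the KMN network on which the BUB proteins assemble, was at 332, 343, 227 and 326 CPM across vehicle replicates 1 to 4, against 260.5, 256, 258 and 278 CPM across TP-472 replicates 1 to 4. Apart from vehicle replicate 3, all vehicle libraries were above all TP-472 libraries, with a log2 fold change of -0.35 ± 0.06 with an adjusted p of 0.000841, against -0.22 ± 0.14 with an adjusted p of 0.237 with all 8. *DSN1*, a subunit of the MIS12 complex, which joins KNL1 and NDC80 to the inner kinetochore, was at 49.8, 47.8, 46.5 and 49.7 CPM across vehicle replicates 1 to 4, against 35.7, 38.2, 34.9 and 32.5 CPM across TP-472 replicates 1 to 4. Vehicle replicate 3 was the lowest of its group for this gene and above all TP-472 libraries. The log2 fold change was -0.48 ± 0.07 with an adjusted p of 0.000267 without it and -0.46 ± 0.09 with an adjusted p of 0.00665 with it, below the 1.5-fold limit in both fits. The other subunits of that complex among the 50 genes, *NSL1* and *PMF1*, had values of -0.03 ± 0.07 with an adjusted p of 0.764 and -0.13 ± 0.08 with an adjusted p of 0.162. The reads of *PMF1* may be shared with the *PMF1-BGLAP* readthrough gene, so its value is uncertain.

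*SKA3* (chr13:21153595-21176602, - strand) encodes a subunit of the SKA complex, which keeps kinetochores on the ends of microtubules. It was at 13.8, 15.8, 11.1 and 17.8 CPM across vehicle replicates 1 to 4, against 22.96, 21.3, 22.8 and 21.2 CPM across TP-472 replicates 1 to 4. All TP-472 libraries were above all vehicle libraries. The gene rose in the fit with all 8 libraries (0.59 ± 0.15 with an adjusted p of 0.0164) and was below the fold limit without vehicle replicate 3 (0.48 ± 0.09 with an adjusted p of 0.00202). Its partner *SKA1* was also higher in all TP-472 libraries than in any vehicle library, at 56.8 to 61.8 CPM against 42.0 to 56.1 CPM, with an adjusted p over 0.05 (0.16 ± 0.07 with an adjusted p of 0.0806). *ZWINT*, which helps recruit the RZZ complex and dynein, had a value of 0.14 ± 0.09 with an adjusted p of 0.208. Hence without vehicle replicate 3 *DSN1*, *SPC24*, *SPC25*, *NUF2*, *NDC80* and *KNL1* were lower by the adjusted p and *SKA3* higher, while with all 8 libraries *DSN1* and *SPC24* were lower and *SKA3* higher.

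Both genes of the fibrous corona, the outermost layer of the kinetochore, were lower by the adjusted p without vehicle replicate 3. In that fit 28.5% of all genes tested were lower. *CENPF* (chr1:214603195-214664588, + strand) encodes a very large protein that binds microtubules and dynein regulators and accumulates in G2. It was at 986, 1036, 895 and 984 CPM across vehicle replicates 1 to 4, against 690.2, 654, 679 and 669.5 CPM across TP-472 replicates 1 to 4. The vehicle libraries were all above the TP-472 libraries, and vehicle replicate 3 was the lowest of its group. The mean went from 1002 ± 29.8 CPM (SD, n = 3) to 673 ± 15.3 CPM (SD, n = 4). The log2 fold change was -0.58 ± 0.06 with an adjusted p of 6.2e-05 without vehicle replicate 3, just inside the 1.5-fold limit, and -0.54 ± 0.10 with an adjusted p of 0.0041 with all 8 libraries. Leaving out vehicle replicate 1 or 4 or TP-472 replicate 1 in addition took it past the limit, at -0.59 to -0.60. *CENPE*, the kinesin that carries chromosomes toward the spindle equator, was at 287, 287, 209 and 272 CPM across vehicle replicates 1 to 4, against 234, 218, 219.6 and 242 CPM across TP-472 replicates 1 to 4. The groups did not overlap when vehicle replicate 3 was left out (-0.31 ± 0.06 with an adjusted p of 0.00238), and with it they did (-0.21 ± 0.12 with an adjusted p of 0.213).

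**Figure D3:**
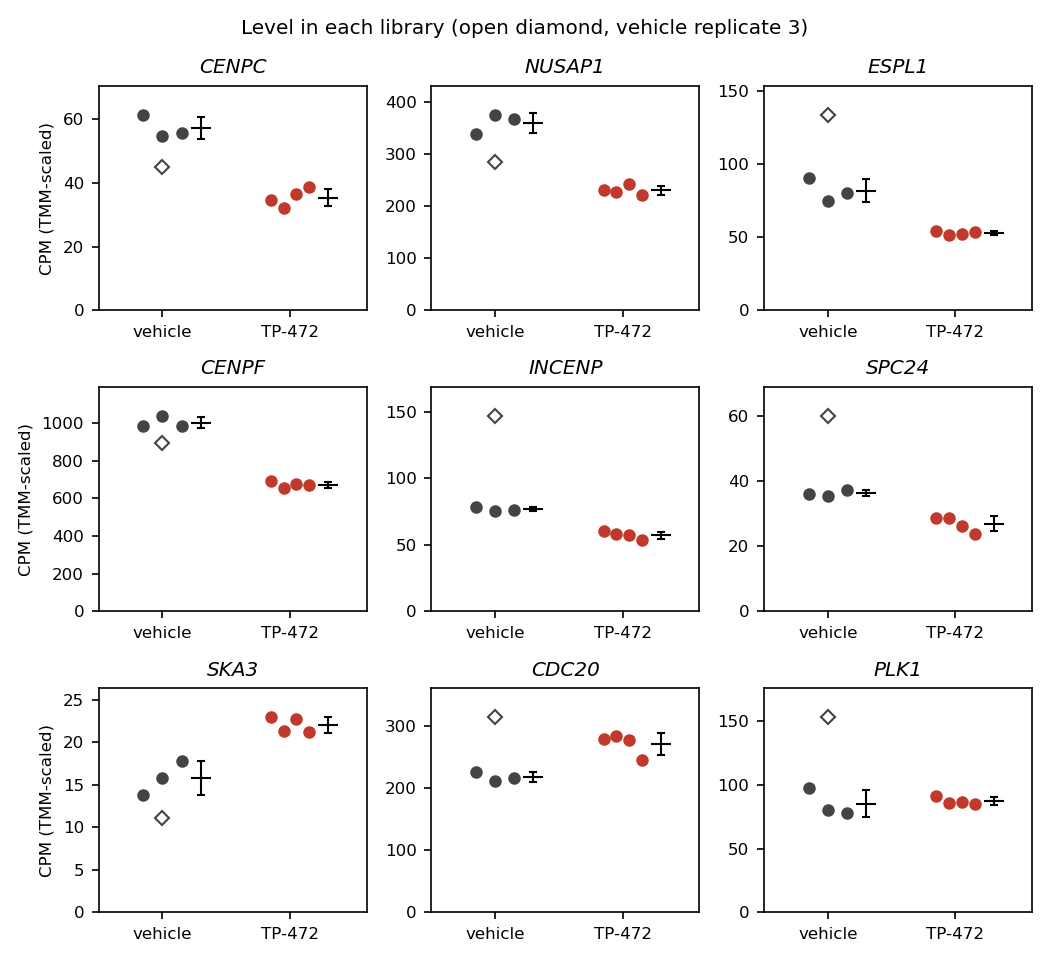
Level in CPM (TMM-scaled, y axis from 0) of 9 genes in each vehicle and TP-472 library; filled points are libraries, open diamonds vehicle replicate 3, and bars the mean ± SD of the filled points (n = 3 and n = 4). For *CENPC*, *NUSAP1*, *ESPL1* and *CENPF* the TP-472 points lie below every vehicle point, while for *CDC20* and *PLK1* the open diamond lies above every other point.

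Of 6 spindle assembly checkpoint genes, 2 were lower by the adjusted p without vehicle replicate 3, both below the 1.5-fold limit. The share over all genes tested was 28.5% in that fit. *TTK* (MPS1), the kinase that starts the checkpoint at unattached kinetochores, was at 136, 163, 71.2 and 155 CPM across vehicle replicates 1 to 4, against 121, 115, 129.7 and 109 CPM across TP-472 replicates 1 to 4. Vehicle replicate 3 was the lowest library. The log2 fold change was -0.36 ± 0.08 with an adjusted p of 0.00451 without it and -0.15 ± 0.23 with an adjusted p of 0.63 with it. *BUB1*, a kinase that marks centromeric chromatin and recruits other checkpoint proteins, was at 235, 247, 169 and 238 CPM across vehicle replicates 1 to 4, against 199.5, 205, 210.5 and 198 CPM across TP-472 replicates 1 to 4. Its value was -0.24 ± 0.06 with an adjusted p of 0.00437 without vehicle replicate 3 and -0.13 ± 0.13 with an adjusted p of 0.464 with it.

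*BUB1B* encodes BUBR1, a subunit of the mitotic checkpoint complex that inhibits CDC20, and was at 158, 182, 118 and 173 CPM across vehicle replicates 1 to 4, against 166, 161, 171 and 158 CPM across TP-472 replicates 1 to 4. The groups overlapped, with a log2 fold change of -0.07 ± 0.06 with an adjusted p of 0.375. *BUB3*, the adaptor that both BUB1 and BUBR1 bind, had a value of -0.07 ± 0.06 with an adjusted p of 0.323. *MAD2L1*, whose product MAD2 is the protein converted to its active form at kinetochores, had a value of 0.17 ± 0.12 with an adjusted p of 0.242, and its receptor *MAD1L1* a value of 0.05 ± 0.07 with an adjusted p of 0.602. In vehicle replicate 3 this pair moved apart: *MAD2L1* was at 69.7 CPM against 128 to 170.2 CPM in the other vehicle libraries, and *MAD1L1* at 46.9 CPM against 23.3 to 24.8 CPM. Thus 2 of the 6 genes, both kinases, were lower by the adjusted p without vehicle replicate 3, and the 4 genes of the inhibitory complex and its receptor had an adjusted p over 0.05 in both fits.

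The chromosomal passenger complex corrects faulty attachments, and of its 4 genes 1 was lower and 1 higher by the adjusted p without vehicle replicate 3. The shares over all genes tested were 28.5% and 28.6% in that fit. *INCENP* (chr11:62123973-62153163, + strand), the scaffold that activates Aurora B, was at 78.5, 75.6, 146 and 76.4 CPM across vehicle replicates 1 to 4, against 60, 58.1, 57.1 and 53.2 CPM across TP-472 replicates 1 to 4. Vehicle replicate 3 was far above the others, and all vehicle libraries were above all TP-472 libraries. It fell in the fit with all 8 libraries (-0.72 ± 0.22 with an adjusted p of 0.0304) and was below the fold limit without vehicle replicate 3 (-0.43 ± 0.06 with an adjusted p of 0.000237). *AURKB*, the kinase of the complex, was at 60.5, 65.5, 75.1 and 64.8 CPM across vehicle replicates 1 to 4, against 59.95, 59.9, 57.6 and 52.1 CPM across TP-472 replicates 1 to 4. The groups did not overlap, yet the difference was small (-0.15 ± 0.07 with an adjusted p of 0.0779, and -0.21 ± 0.10 with an adjusted p of 0.139 with all 8 libraries). *BIRC5* (survivin), which targets the complex to centromeres, was at 107, 133, 120.4 and 134 CPM across vehicle replicates 1 to 4, against 152, 165, 163 and 135 CPM across TP-472 replicates 1 to 4. All TP-472 libraries were above all vehicle libraries, by 0.30 ± 0.10 with an adjusted p of 0.025 on the log2 scale without vehicle replicate 3 and 0.32 ± 0.11 with an adjusted p of 0.0552 with it. *CDCA8* (borealin) had a value of 0.03 ± 0.06 with an adjusted p of 0.636.

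Of the 5 genes of the mitotic kinases and the anaphase switch, 1 fell in both fits. Of all genes tested, 13.1% were called lower without vehicle replicate 3 and 14.9% with all 8 libraries. By the adjusted p alone 1 of the 5 was lower and 1 higher without vehicle replicate 3, against 28.5% and 28.6% of all genes. *ESPL1* (chr12:53268299-53293643, + strand) encodes separase, the protease that cuts cohesin at anaphase, and was at 90.4, 75.2, 134 and 80.3 CPM across vehicle replicates 1 to 4, against 54.5, 51.5, 52.2 and 53.9 CPM across TP-472 replicates 1 to 4. The TP-472 libraries lay within 51.5 to 54.5 CPM, below every vehicle library, and vehicle replicate 3 was the highest. The mean went from 82.0 ± 7.71 CPM (SD, n = 3) to 53.0 ± 1.4 CPM (SD, n = 4), a log2 fold change of -0.63 ± 0.07 with an adjusted p of 7.1e-05, and with all 8 libraries it was -0.84 ± 0.18 with an adjusted p of 0.00715. With vehicle replicate 1 left out as well as vehicle replicate 3, it was -0.56 and no longer past the fold limit. *PTTG1*, which encodes securin, the inhibitor of separase, had a value of 0.04 ± 0.07 with an adjusted p of 0.642. *CDC20*, the activator of the anaphase-promoting complex, was at 227, 211, 315 and 216 CPM across vehicle replicates 1 to 4, against 279, 284, 277 and 245 CPM across TP-472 replicates 1 to 4. Without vehicle replicate 3, the highest library, the TP-472 libraries were all above the vehicle libraries (0.31 ± 0.07 with an adjusted p of 0.00401); with it the groups overlapped (0.16 ± 0.14 with an adjusted p of 0.391).

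*PLK1*, the kinase needed for centrosome maturation and kinetochore attachment, was at 97.4, 80.02, 153 and 77.96 CPM across vehicle replicates 1 to 4, against 91.5, 85.7, 86.1 and 84.5 CPM across TP-472 replicates 1 to 4. Apart from vehicle replicate 3 the libraries of both groups overlapped, the TP-472 libraries lying within the vehicle range, with a log2 fold change of 0.03 ± 0.08 with an adjusted p of 0.815; with all 8 libraries the value was -0.23 ± 0.21 with an adjusted p of 0.395. *AURKA*, the kinase of spindle poles, was at 94.2, 108, 63.8 and 101 CPM across vehicle replicates 1 to 4, against 114, 113, 114 and 103 CPM across TP-472 replicates 1 to 4. The groups overlapped and the log2 fold change was 0.13 ± 0.07 with an adjusted p of 0.125 without vehicle replicate 3 and 0.28 ± 0.16 with an adjusted p of 0.195 with all 8 libraries. Neither kinase was called in either fit, and the sign of *PLK1* differed between them.

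Of 8 genes for motors and spindle proteins, 1 fell without vehicle replicate 3, 3 more were lower by the adjusted p, and the median was -0.17 (-0.13 with all 8 libraries). Of all genes tested, 13.1% were called lower without vehicle replicate 3, and 28.5% were lower by the adjusted p. *NUSAP1* (chr15:41332694-41381050, + strand), which bundles microtubules near chromosomes, was at 338, 375, 286 and 368 CPM across vehicle replicates 1 to 4, against 232, 228, 243 and 221 CPM across TP-472 replicates 1 to 4. The vehicle libraries were all above the TP-472 libraries. The mean went from 360 ± 19.5 CPM (SD, n = 3) to 231 ± 9.05 CPM (SD, n = 4), a log2 fold change of -0.65 ± 0.06 with an adjusted p of 3.33e-05. With all 8 libraries it was -0.57 ± 0.11 with an adjusted p of 0.00574, inside the fold limit. *KIF11* (Eg5), the motor that pushes spindle poles apart, was at 276, 286, 184 and 277 CPM across vehicle replicates 1 to 4, against 228, 213, 217 and 221 CPM across TP-472 replicates 1 to 4. Apart from vehicle replicate 3, the lowest library, every vehicle library was above every TP-472 library (-0.35 ± 0.05 with an adjusted p of 0.000494, against -0.22 ± 0.15 with an adjusted p of 0.255 with all 8).

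*TPX2*, which activates Aurora A on the spindle, was at 378, 318, 458 and 312 CPM across vehicle replicates 1 to 4, against 301, 276, 294 and 313 CPM across TP-472 replicates 1 to 4. TP-472 replicate 4 was above vehicle replicate 4, so the groups overlapped (-0.19 ± 0.08 with an adjusted p of 0.0748). *KIF2C* (MCAK), which depolymerizes microtubules at centromeres, and *KIF18A*, which dampens chromosome oscillation, had values of -0.23 ± 0.07 with an adjusted p of 0.0199 and -0.14 ± 0.05 with an adjusted p of 0.0436 without vehicle replicate 3. With all 8 libraries neither passed the adjusted p (-0.23 ± 0.10 with an adjusted p of 0.0895 and -0.01 ± 0.14 with an adjusted p of 0.953). The remaining motors, which act in the central spindle and in cytokinesis, had an adjusted p over 0.05 in both fits: *KIF20A* (-0.10 ± 0.08 with an adjusted p of 0.284), *KIF23* (-0.10 ± 0.06 with an adjusted p of 0.145) and *KIF4A* (0.01 ± 0.06 with an adjusted p of 0.913). *KIF4A* was the steadiest of these, at 128 to 141 CPM over all 8 libraries.

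**Figure D4:**
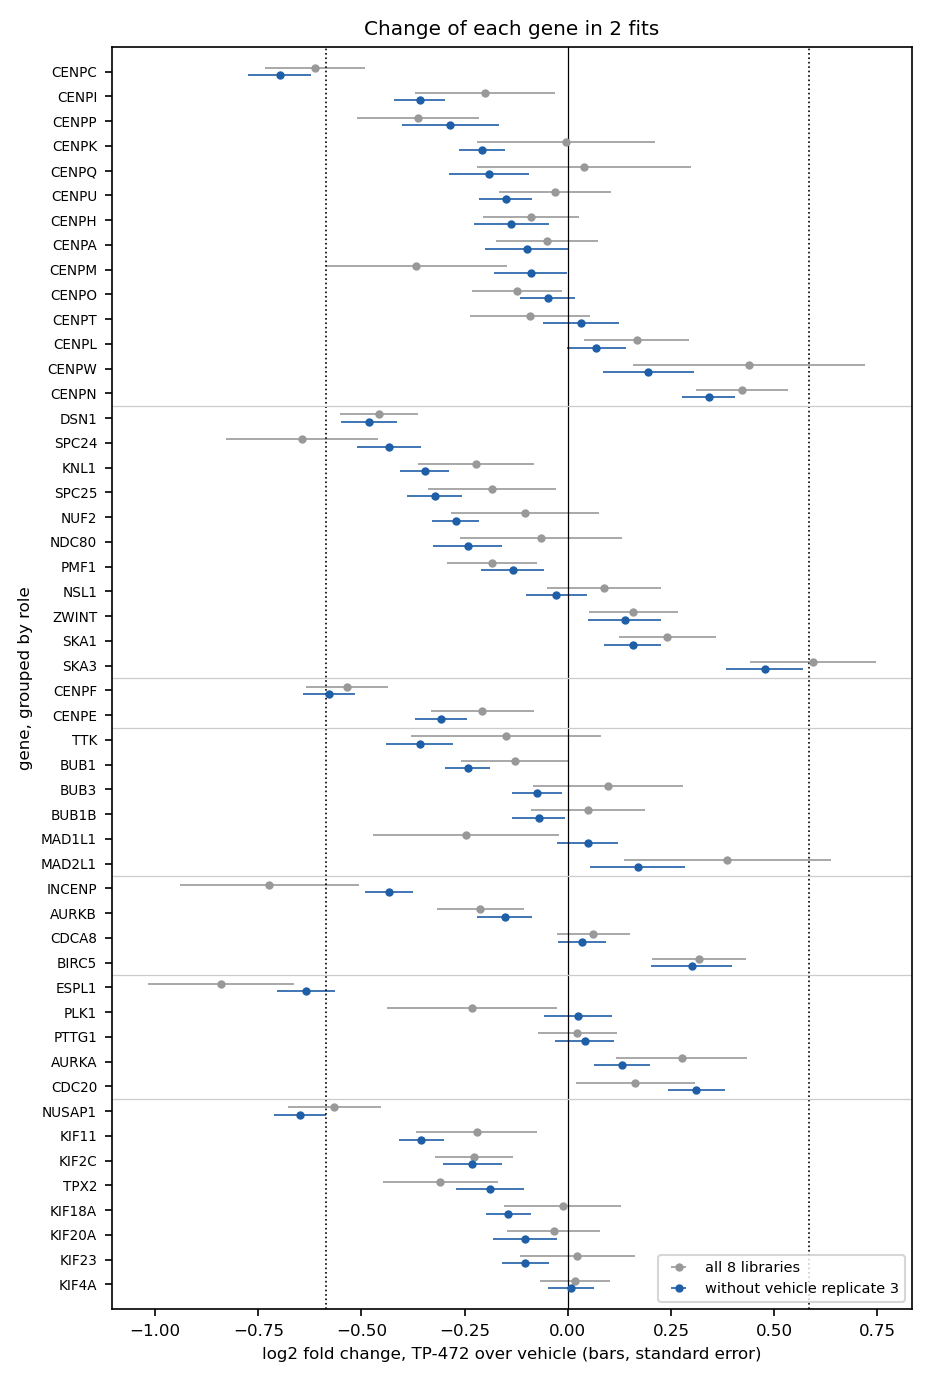
Log2 fold change of each of the 50 genes, TP-472 over vehicle (x axis; points are estimates and bars the standard error), grouped by role, with all 8 libraries (gray) and without vehicle replicate 3 (blue); dotted lines mark a 1.5-fold change. Blue points for *CENPC*, *ESPL1* and *NUSAP1* lie beyond the left line, and *CENPF* lies on it; gray bars are wider than blue ones for most genes.

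Other genes of the same machinery were read from 7 lists that hold none of the 50, all tested in the same fits. Without vehicle replicate 3, the 21 other centromere and kinetochore genes had 2 that fell and 1 that rose, with 5 lower and 7 higher by the adjusted p alone. With all 8 libraries 3 of them rose (*CENPX*, *CENPS* and *MAD2L1BP*, the latter pair named after their values were seen), and 3 were lower and 4 higher by the adjusted p alone. *KNTC1*, a subunit of the RZZ complex, had a log2 fold change of -0.69 ± 0.05 with an adjusted p of 8.67e-06 without vehicle replicate 3. The RZZ genes *ZW10* and *ZWILCH*, named after their values were seen, went the other way in that fit. Their values were 0.23 ± 0.06 with an adjusted p of 0.00851 and 0.16 ± 0.06 with an adjusted p of 0.0619. *CENPX*, a histone-fold protein of the CENP-T module, rose by 0.79 ± 0.10 with an adjusted p of 0.000204. Of the 27 other spindle and cytokinesis genes, 5 fell and 1 rose, with 15 lower and 2 higher by the adjusted p alone. With all 8 libraries 3 fell and 1 rose, with 9 lower and 1 higher. By the adjusted p, 28.5% of all genes tested were lower and 28.6% higher without vehicle replicate 3, and 19.1% and 17.2% with all 8 libraries. The shares called were 13.1% lower and 12.0% higher without vehicle replicate 3, and 14.9% and 12.0% with all 8 libraries. Without vehicle replicate 3 *HAUS2* rose (0.79 ± 0.06 with an adjusted p of 7.78e-06). *CIT* (citron kinase) had -0.98 ± 0.14 with an adjusted p of 0.000358, the spindle pole gene *ASPM* -0.68 ± 0.06 with an adjusted p of 2.51e-05, and the kinesins *KIF14* and *KIF15* -0.69 ± 0.05 with an adjusted p of 7.78e-06 and -0.62 ± 0.06 with an adjusted p of 4.44e-05. Of the genes named from these lists, *CENPX*, *CIT* and *HAUS2* were also called with all 8 libraries, while *KNTC1*, *ASPM*, *KIF14* and *KIF15* were then within the fold limit (-0.57, -0.54, -0.56 and -0.49). Of 8 condensin genes 7 were lower by the adjusted p alone without vehicle replicate 3, against 28.5% of all genes tested. All 7 were below the fold limit, and the median of the 8 was -0.28 (3 lower and a median of -0.22 with all 8 libraries).

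Of 15 genes of mitotic entry, 3 fell and 1 rose without vehicle replicate 3, with 7 lower and 2 higher by the adjusted p alone and a median of -0.22. By the adjusted p, the shares over all genes tested were 28.5% lower and 28.6% higher in that fit, and 13.1% and 12.0% were called. With all 8 libraries 1 fell and 1 rose, with a median of -0.08. The shares over all genes were then 14.9% and 12.0% for calls and 19.1% and 17.2% by the adjusted p. *CDK1*, the kinase that drives entry into mitosis, was at 221, 284, 104 and 266 CPM across vehicle replicates 1 to 4, against 167, 179, 178 and 159 CPM across TP-472 replicates 1 to 4. It fell without vehicle replicate 3 (-0.59 ± 0.09 with an adjusted p of 0.000392) and was not called with all 8 libraries (-0.36 ± 0.27 with an adjusted p of 0.314), where the groups overlapped. Its partner *CCNB1* (cyclin B1) was higher in all TP-472 libraries than in any vehicle library, at 283 to 344 CPM against 147 to 279 CPM, with a log2 fold change of 0.25 ± 0.09 with an adjusted p of 0.038 without vehicle replicate 3 and 0.42 ± 0.19 with an adjusted p of 0.112 with all 8 libraries. Among the CDC25 phosphatases that activate CDK1, *CDC25B* and *CDC25C* fell (-0.82 ± 0.13 with an adjusted p of 0.000493 and -0.68 ± 0.07 with an adjusted p of 3.65e-05, the latter within the fold limit at -0.54 with all 8 libraries) and *CDC25A* rose (0.94 ± 0.07 with an adjusted p of 5.64e-06). In the list of 18 genes of the anaphase-promoting complex, *FZR1*, the activator used after anaphase, fell (-0.59 ± 0.08 with an adjusted p of 0.000186, and -1.11 ± 0.34 with an adjusted p of 0.0307 with all 8 libraries, where vehicle replicate 3 was at 132 CPM against 45.2 to 51.8 CPM in the other vehicle libraries) and *CDC26* rose (0.66 ± 0.14 with an adjusted p of 0.00278), and 4 were lower and 4 higher by the adjusted p alone, against 1 and 1 with all 8 libraries.

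Regulators that act on promoters of mitotic genes made a list of 19, of which 3 fell and 1 rose without vehicle replicate 3. Of all genes tested, 13.1% were called lower and 12.0% higher in that fit. By the adjusted p alone 10 were lower and 5 higher, against 28.5% and 28.6% of all genes tested. The fit of all 8 libraries had 4 that fell and 1 that rose, with 6 lower and 3 higher by the adjusted p alone. The shares over all genes were then 14.9% and 12.0% for calls and 19.1% and 17.2% by the adjusted p. *FOXM1*, the forkhead factor of G2/M genes, was at 120.3, 82.9, 208 and 82.96 CPM across vehicle replicates 1 to 4, against 73.2, 61.9, 62.2 and 71.3 CPM across TP-472 replicates 1 to 4. The vehicle libraries were all above the TP-472 libraries. It fell in the fit with all 8 libraries (-0.88 ± 0.28 with an adjusted p of 0.0379) and was below the fold limit without vehicle replicate 3 (-0.51 ± 0.13 with an adjusted p of 0.00903). *MYBL2* (B-MYB), the partner of MuvB, had -0.02 ± 0.07 with an adjusted p of 0.855 without vehicle replicate 3 and -0.48 ± 0.30 with an adjusted p of 0.241 with all 8 libraries, and vehicle replicate 3 was at 260.5 CPM against 100.1 to 108 CPM in the other vehicle libraries. *RBL2* (p130), a subunit of DREAM, fell (-1.14 ± 0.07 with an adjusted p of 2.08e-06), as did *E2F7* (-0.91 ± 0.09 with an adjusted p of 4.5e-05) and *TFDP2* (-0.81 ± 0.06 with an adjusted p of 6.29e-06). *CDKN1A* (p21), the CDK inhibitor, was at 3.44, 4.48, 4.26 and 3.77 CPM across vehicle replicates 1 to 4, against 19.9, 23.03, 23.1 and 20.7 CPM across TP-472 replicates 1 to 4. It rose by 2.47 ± 0.11 with an adjusted p of 6.42e-07 on the log2 scale, which no vehicle library overlapped.

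Replication genes served as a comparison, and they do not stand for the cell cycle as a whole. Of 20, 1 rose (*CDC6*, 0.74 ± 0.07 with an adjusted p of 3.95e-05) without vehicle replicate 3, where 12.0% of all genes tested did. By the adjusted p alone 8 were higher and 1 lower, where 28.6% and 28.5% of all genes tested were. The median was 0.06, against -0.14 for the kinetochore and spindle genes. With all 8 libraries 1 rose, where 12.0% of all genes tested did. By the adjusted p alone 6 were higher and 0 lower, against 17.2% and 19.1%. The median was then 0.09, against -0.09 for the kinetochore and spindle genes. The difference between the lists was not tested. The proliferation markers varied among libraries of 1 group. *MKI67* was at 945, 552, 1184 and 543 CPM across vehicle replicates 1 to 4, against 520.1, 461, 436 and 742 CPM across TP-472 replicates 1 to 4, and the groups overlapped. Its 3 highest libraries (vehicle replicates 1 and 3 and TP-472 replicate 4) were those in which the 10 most abundant genes took the smallest shares of counts, 15.7%, 14.4% and 14.3%, against 18.0% to 21.6% in the other 5. *TOP2A* had a log2 fold change of -0.58 ± 0.07 with an adjusted p of 0.000113 without vehicle replicate 3 and -0.43 ± 0.16 with an adjusted p of 0.0681 with all 8 libraries, where the groups overlapped. The part of these differences in the results for the 50 genes was not tested.

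**Figure D5:**
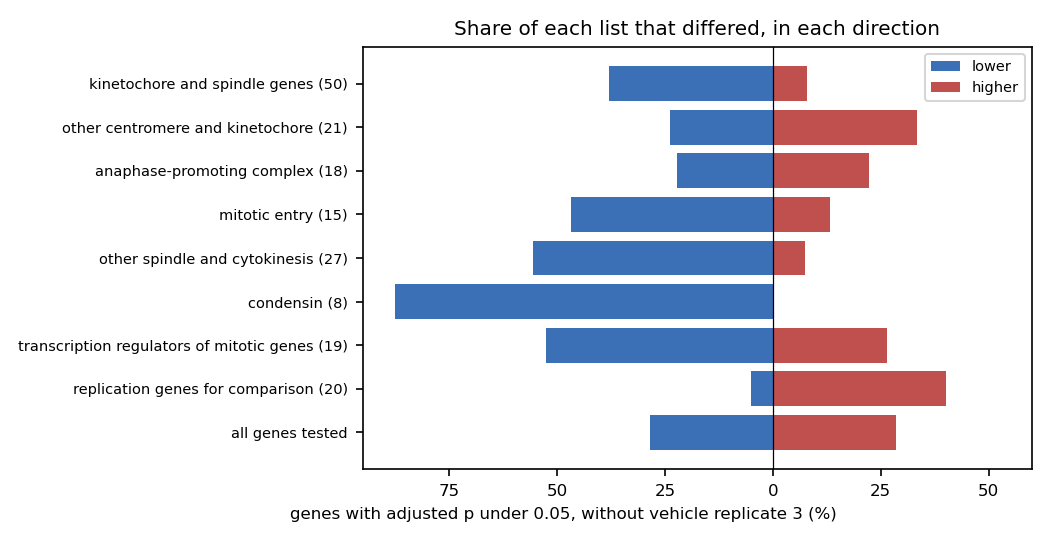
Share of genes (percent, x axis) with an adjusted p under 0.05 in the fit without vehicle replicate 3, lower in TP-472 to the left and higher to the right, for the 50 genes, the 7 other lists (number of genes in parentheses) and all genes tested. For the 50 genes 38.0% were lower and 8.0% higher, against 28.5% and 28.6% of all genes, and for the replication genes 5.0% were lower and 40.0% higher.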

How the data were processed

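RNA from SK-UT-1 cells was sequenced in 8 libraries (strand-specific, total RNA). The authors mapped reads with STAR, quantified transcripts with Salmon 1.4.0 and summed them to genes with GENCODE release 34. The deposited values are estimated counts per gene, neither scaled nor filtered, and were rounded here. Genes with over 1 CPM in at least 4 libraries were kept, scaled by TMM and tested with the quasi-likelihood test of edgeR 4.0.16 (R 4.3.3, design with treatment alone), with Benjamini-Hochberg adjustment over all genes tested. Log2 CPM values use a prior count of 2, and fold changes the default of edgeR. CPM values carry counting error only for the depth given, and the spread between replicates limits precision. DESeq2 1.42.0, limma-voom (limma 3.58.1), other scalings and filters, a replicate block, a GC correction, protein-coding genes alone and each library left out in turn were alternatives. The calculations were tested on simulated data. No pair of libraries was a copy (lowest mean chi-square 11.2).

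The 50 genes, the role groups and the other lists were chosen with earlier results of these data known. Every one of the 50 is named. Values in every library are given for 15 genes picked for their role and for the 2 with the largest change in each role group without vehicle replicate 3. *SPC24* was added after its values were seen, as called in 1 fit only. Of the other lists, at most 4 called genes each with the highest mean CPM are named, and always *FOXM1*, *MYBL2*, *CDK1*, *CCNB1* and *CDKN1A*. *HAUS2* was added after its values were seen, as the gene of its list that rose, and *ZW10* and *ZWILCH* as RZZ genes beside *KNTC1*. The values of 1 gene of these lists are not reported here, although counts include it. Coordinates are from GENCODE release 29 (GRCh38), and promoters from RefSeq (GRCh38.p14), where 41 of the 50 genes matched by symbol. A planned exact permutation test for genes under the filter was not needed for the 50 genes.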

Additional observations from a re-analysis of the deposited data

Results flagged for a closer look

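In a group of 4 libraries, the most extreme library was compared with the rest by the gap to its nearest neighbor as a share of the group's range. The share says nothing of the size of the gap in CPM. Over the 50 genes and both groups this share was past Dixon's limit at the 95% level in 19 of 100 cases, where chance alone gives about 1 in 20. All genes were read in the same 8 libraries, so the cases are not independent and the excess over that rate was not tested.

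Vehicle replicate 3 was the extreme library in 10 of these cases. It stood apart above the other vehicle libraries for *CENPM* (0.88), *SPC24* (0.923), *MAD1L1* (0.936), *INCENP* (0.958) and *CDC20* (0.848), and below them for *CENPK* (0.893), *KNL1* (0.852), *BUB1* (0.839), *KIF11* (0.905) and *KIF18A* (0.914). The same held for other genes of the pathway named here, above for *FZR1* (0.924) and *MYBL2* (0.953) and below for *KNTC1* (0.963), *KIF14* (0.914) and *ASPM* (0.874).

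TP-472 replicate 4 stood apart below the other TP-472 libraries in 6 genes, *CENPA* (0.941), *ZWINT* (0.849), *AURKA* (0.886), *KIF20A* (0.976), *KIF2C* (0.898) and *KIF4A* (0.865). TP-472 replicate 3 stood apart above for *CENPL* (0.831) and *NSL1* (0.904), and TP-472 replicate 2 for *NUF2* (0.934). Some of these gaps were small in level: *NUF2* was at 66.6 CPM against 65.1 to 65.2 CPM in the other TP-472 libraries, and *KIF4A* at 133 CPM against 136 to 137 CPM.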

How the results depend on the processing

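No alternative reversed a called value, and for the 23 of the 50 genes with values given in every library 358 of 391 alternatives with all 8 libraries and 359 of 368 without vehicle replicate 3 kept the side of the threshold, with a change of sign in 10 and 4 of them for genes not called. With all 8 libraries, the number of the 50 genes that fell (4) was 2 with limma-voom and quality weights, 2 with the replicate block, 7 with no fold limit and 1 to 4 with 1 library left out. The number that rose (1) was 0 with total-count scaling, with limma-voom, with no filter and with the GC trend removed, 2 with no fold limit and 0 to 1 with 1 library left out. Calls of *INCENP*, *SPC24* and *SKA3* were each lost in 8 of 17 alternatives, among them the GC trend removed (-0.36, -0.53 and 0.46) and limma-voom (-0.40, -0.40 and 0.40). With the GC trend removed, 5 of the 50 genes fell, and *CENPF* (-0.71), *DSN1* (-0.60) and *NUSAP1* (-0.70) came past the fold limit. Leaving out 1 library moved the median of the 50 genes between -0.135 and -0.025 (without vehicle replicate 3 and without vehicle replicate 2) and the genes called lower over the whole table (2096) between 1321 and 2325 (the lowest without TP-472 replicate 3). Without vehicle replicate 3, no fold limit gave 19 lower and 4 higher of the 50 genes, and 3953 lower and 3965 higher of all genes, and no filter gave 2720 higher genes (1660 with it). The filterByExpr filter, which follows the smaller group, gave 2343 lower and 2276 higher genes there. There *ESPL1* was inside the fold limit with limma-voom (-0.58), the GC trend removed (-0.58) and vehicle replicate 1 left out (-0.56), and *CENPF* was past it in 6 of 16 alternatives. Of the 17 genes with values in every library that passed the adjusted p there, 2 lost it in an alternative, *NDC80* in 7 of 16 (highest adjusted p 0.126) and *BIRC5* in 4 of 16 (highest 0.0638), the replicate block and single libraries left out. The cause of these changes was not tested.

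Same-numbered libraries did not deviate together (correlations of -0.06, 0.12, -0.17 and -0.18). The deviations were taken from group means that include vehicle replicate 3, so these values cannot exclude a pairing. The labels do not state one. With the replicate block, 1555 genes were lower and 1500 higher with all 8 libraries, and without vehicle replicate 3 it gave 1727 and 1633, with 3 of the 50 genes lower and 0 higher. Of the 50 genes, the groups did not overlap for 10 lower and 4 higher with RLE scaling for all 8 libraries. With total-count scaling these were 9 and 5. Without vehicle replicate 3 the counts were 21 and 5, and 22 and 6. With TMM scaling the shares over all genes were 21.6% lower and 23.8% higher, and 28.3% and 30.2% without vehicle replicate 3. Shares over all genes are not given for the other scalings. Depth was ample for all 50 genes, and the number of libraries limits what can be told.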
